A study of Mus musculus with 1536 samples.

Results

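Transcripts of the YAP and TAZ pathway were examined in single lymphatic endothelial cells (LECs) of the nasopharyngeal mucosa of adult mice. The 8 genes, taken by symbol from a matrix of 23168 genes, were *Yap1*, *Wwtr1* (which encodes TAZ), *Tead1*, *Lats2*, *Amotl2*, *Cyr61*, *Ctgf* and *Ankrd1*. Their levels were read in all adult cells of the matrix, in the 31.2% of cells with *Stab2* above 1 and in the 17.9% with *Cldn11* above 1. The 450 cells with neither made up 53.4% of all. *Stab2* encodes a hyaluronan scavenger receptor found on capillary LECs, and *Cldn11* a claudin that the study used as a marker of valve LECs. The study paired *Stab2* with *Ptx3* for its *Ptx3*-positive capillary cluster, and marked its *Ptx3*-negative capillary cluster by *Fndc1* and *Ptn*. Cells without *Stab2* above 1 can therefore include capillary LECs.

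The mice were c57bl/6 animals aged 10–12 weeks, and the labels name no treatment. Mucosa from 30 animals, males and females together, was pooled, CD31+ PDPN+ cells were sorted, and single cells were sequenced with Smart-seq3, which is performed in plates and covers full-length transcripts. Aged mice were not analysed here. Neither labels nor column names tie a cell to a mouse or plate, so all cells form 1 sample and no p-value is given.

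Each value is a natural logarithm, taken of reads per 10000 plus 1, so a value of 1 corresponds to 1.72 reads per 10000. Cells held between 7433 and 3524358 reads, with a median of 350746. Because a rare transcript can be missed in a shallow cell, shares of cells with a read are also given after each cell was thinned to 20000 reads, which kept 93.9% of cells and left out 51. Standard deviations describe the spread over these cells. Ranges in parentheses after a share are its exact 95% interval (Clopper–Pearson), which reflects counting error alone. Cells are not replicates, so overlap or separation of these intervals is not a test of a difference.

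YAP and TAZ are transcriptional co-activators without a DNA-binding domain of their own, and they act mainly through TEAD transcription factors. The Hippo kinases, with LATS1 and LATS2 at the end of the cascade, phosphorylate them and keep them out of the nucleus, and angiomotin family proteins such as AMOTL2 bind and retain them. *Cyr61*, *Ctgf* and *Ankrd1* are widely used target genes, and *Lats2* and *Amotl2* are both inhibitors and targets, which closes a feedback loop. In endothelium the pathway responds to flow and cell shape, and in LECs it has been studied as a regulator of *Prox1* and vessel growth. Transcript levels do not show the phosphorylation or nuclear location of the proteins.

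Promoter windows of 300 bases (250 before and 50 from the transcription start, RefSeq, GRCm38.p6) were given for 6 of the 8 genes, and none for *Tead1* and *Ctgf*. They were searched on both strands for the 6-base core of the TEAD motif, GGAATG, which reads CATTCC when it lies on the opposite strand. All 6 genes held it in at least 1 window, as did 16.6% of the 27025 genes with a window. A match is a description of the sequence and not a measured binding site. The stretches around it are printed 5′ to 3′ on the strand of the gene with the match in capitals, for the 6 genes with a window.
Yap1, chr9:8004720-8004749, minus strand: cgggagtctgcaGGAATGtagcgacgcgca
Wwtr1, chr3:57576029-57576058, minus strand: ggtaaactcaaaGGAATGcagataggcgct
Lats2, chr14:57746102-57746131, minus strand: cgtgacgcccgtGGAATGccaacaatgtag
Amotl2, chr9:102717727-102717756, plus strand: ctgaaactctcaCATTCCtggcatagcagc
Cyr61, chr3:145650036-145650185, minus strand: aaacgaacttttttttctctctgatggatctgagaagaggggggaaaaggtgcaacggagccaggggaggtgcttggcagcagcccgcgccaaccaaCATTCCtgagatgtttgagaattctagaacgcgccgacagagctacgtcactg
Ankrd1, chr19:36119945-36120094, minus strand: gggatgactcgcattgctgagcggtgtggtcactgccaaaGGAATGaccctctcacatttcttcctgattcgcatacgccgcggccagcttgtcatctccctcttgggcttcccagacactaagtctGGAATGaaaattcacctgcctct

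Counted from the transcription start, the match began at -103 in *Cyr61*, -65 in *Amotl2* and -141 in *Yap1*. *Ankrd1* held it at 2 places, -210 and -123. In *Lats2* it began at base 4 after the start in 1 of 2 windows. *Wwtr1* had 2 annotated starts whose windows held the same site. A CArG box, the motif of serum response factor, was in 0 of the 8 windows of these genes and in 1.63% of all windows.

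The labelled cell type was checked first. *Prox1*, the master regulator of lymphatic identity, had a read in 97.7% of cells, *Flt4* in 99.8% and *Pdpn* in 95.2%. The cells had been sorted on PDPN, so the share with *Pdpn* is not an independent check. Of 5 immune markers, *Ptprc* and *Cd3e* were found in 0 cells, which allows a share of up to 0.356% (3 counts), while *Lyz2* was found in 7.96%, *Cd79a* in 2.85% and *Csf1r* in 1.66%. Their summed level ranged from 0 to 274.4 reads per 10000 with a median of 0 (mean 0.129 in cells with *Stab2* above 1 and 0.716 in the others), and 0.356% of cells held at least 2 of them. Cells with *Stab2* above 1 made up 31.2% (28.1–34.5), cells with *Cldn11* above 1 17.9% (15.4–20.7), and 22 cells (2.61%) passed both. Near the threshold, 24 cells lay within 0.25 below and 36 within 0.25 above it for *Stab2*, and 40 and 47 did for *Cldn11*. Among listed capillary genes that did not define the classes, *Aqp1* (log2 ratio 2.56) and *Ptx3* (1.56) were higher past 1.5-fold in the *Stab2* class. *Ccl21a* (0.38), *Reln* (0.36) and *Lyve1* (0.14) stayed within that fold. Of the listed valve genes, *Gata2* (0.62) was higher past it in the *Cldn11* class. *Gja4* (0.23), *Nfatc1* (0.12), *Itga9* (-0.12) and *Foxc2* (-0.14) stayed within it.

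The co-activators were both present, with more transcript of TAZ than of YAP. *Wwtr1* was found in 80.6% of cells (77.8–83.3) and *Yap1* in 65.9% (62.6–69.1). *Wwtr1* had values from 0 to 3.004 with a median of 0.777 and a mean of 0.787 ± 0.662 (SD over all cells). *Yap1* ranged from 0 to 2.36 with a median of 0.300 and a mean of 0.445 ± 0.498. The ranges overlapped, but *Wwtr1* had the higher value in 61.4% of cells and *Yap1* in 27.8%. Mean levels were 1.77 reads per 10000 for *Wwtr1* and 0.802 for *Yap1*. Genes were compared per kilobase of exon, with all annotated exons of a gene merged. Which transcripts were present was not determined. On that scale *Wwtr1* stood at 0.369 reads per 10000 and *Yap1* at 0.0867, a ratio of 4.26. The ratio was 4.91 in cells with *Stab2* above 1 and 4.11 in cells with *Cldn11* above 1. Both transcripts were found in 55.3% of cells and neither in 8.79%.

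*Tead1*, a DNA-binding partner of both, was found in 63.8% of cells and in 39.9% at 20000 reads, with values from 0 to 2.69, a median of 0.106 and a mean of 0.326 ± 0.432. The other TEAD genes were found less often at full depth: *Tead4* in 32.5% of cells, *Tead2* in 27.7% and *Tead3* in 4.99%. Before division by length, mean reads per 10000 were 0.559 for *Tead1*, 0.284 for *Tead2* and 0.217 for *Tead4*. Per kilobase the order differed, with *Tead4* at 0.0604 reads per 10000, *Tead2* at 0.0594, *Tead1* at 0.0412 and *Tead3* at 0.00387. This order depends on the merged exon lengths, which were 13.57 kb for *Tead1*. *Vgll4*, a TEAD cofactor that competes with YAP and TAZ, was at 0.225 reads per 10000 per kilobase. The levels of *Tead4*, *Tead2* and *Tead1* lay close together on this scale.

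The feedback inhibitors were found in similar numbers of cells. *Lats2* was found in 55.5% of cells with values from 0 to 2.25, a median of 0.0444 and a mean of 0.384 ± 0.512. *Amotl2* was found in 56.7% with values from 0 to 2.80, a median of 0.0691 and a mean of 0.408 ± 0.556. Per kilobase, *Amotl2* stood at 0.132 reads per 10000 and *Lats2* at 0.103. *Lats1*, the other LATS kinase, was at 0.0266 on that scale, below *Lats2*.

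The 3 targets differed widely. *Cyr61*, which encodes a secreted matrix protein of the CCN family, was found in 93.2% of cells (91.3–94.8). Its values ran from 0 to 5.60 with a median of 1.66 and a mean of 1.82 ± 1.51, and 61.4% of cells had a value above 1. *Ctgf*, its CCN family relative, was found in 38.1% (34.8–41.5), with values from 0 to 3.35, a median of 0 and a mean of 0.311 ± 0.594. *Ctgf* was concentrated in few cells, as the 43 cells with the highest levels held 58.9% of its summed level. *Ankrd1*, an ankyrin repeat protein best known from heart and skeletal muscle, had a read in 18 cells (2.14%, 1.27–3.36) and reached 2.01. Per kilobase, *Cyr61* stood at 8.81 reads per 10000, *Ctgf* at 0.285 and *Ankrd1* at 0.0103. *Cyr61* was therefore the most abundant and *Ankrd1* the least abundant of the 8 transcripts on that scale.

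**Figure D1:**
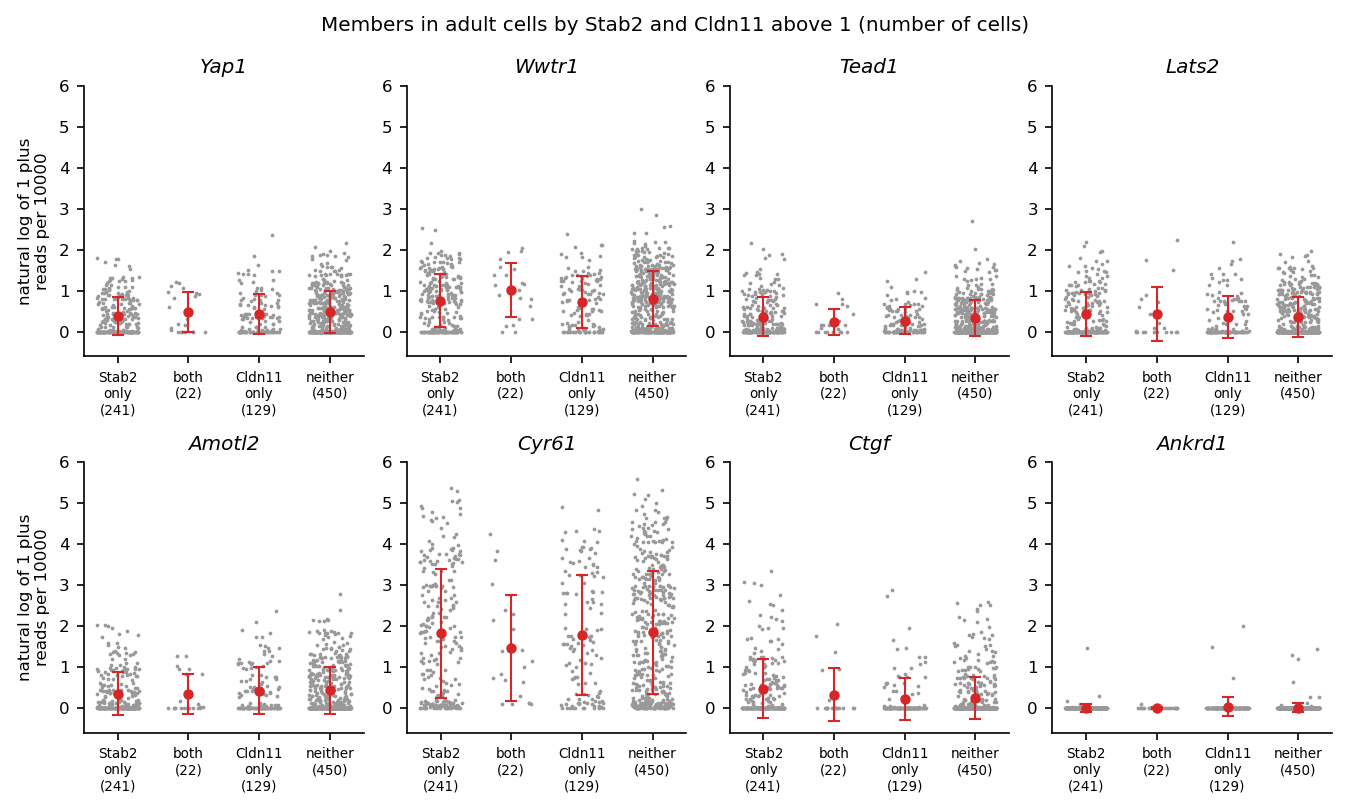
Natural log of 1 plus reads per 10000 (vertical axis) of each gene in single cells (grey points), for cells with only *Stab2* above 1, both genes above 1, only *Cldn11* above 1 or neither, with the number of cells below each. Red points and bars are means ± SD over cells. *Cyr61* spans 0 to 5.60, *Ankrd1* is at 0 in nearly all cells, and the classes overlap for every gene.

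Whether the pathway differed between the *Stab2* class and other cells was examined by the log2 ratio of mean reads per 10000, with 0.1 added to each mean, and a gene was counted as different past 1.5-fold. Among the 7 pathway genes with a read in 10% of cells or more, 1 was higher and 0 were lower in the *Stab2* class. Over all 9655 genes of that kind, 4.92% were higher and 3.9% lower. The 1 gene was *Ctgf*, at a mean of 1.33 reads per 10000 in the *Stab2* class and 0.583 in the other cells, a log2 ratio of 1.07 (2.10-fold) that lay at percentile 99.1 of these genes. The call was lost with 1 instead of 0.1 added (0.56) and with a *Stab2* cut at 0 (0.54). It was also lost as a difference of mean natural log values expressed in log2 units (0.31). That is another scale, since these values have 1 added to the reads of each cell.

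*Ctgf* values ran from 0 to 3.35 in the *Stab2* class and from 0 to 2.89 in the other cells, with a median of 0 in both, so more than 50% of cells had no read of it in either class. The classes differed both in the share of cells with the transcript and in its level where it was found, which averaged 2.76 reads per 10000 in the *Stab2* class and 1.74 elsewhere. The share was 48.3% (42.1–54.5) in the *Stab2* class and 33.5% (29.7–37.5) in the other cells. At 20000 reads the shares were 37.4% (31.3–43.8) and 21.8% (18.4–25.5). A value above 1 was reached by 18.6% and 9.15% of cells. The share at 20000 reads was 19.7% (15.5–24.4) in cells with no *Stab2* read, 25% (19.4–31.3) in cells above 0 and up to 1, 37.3% (28.2–47.01) between 1 and 2, and 37.5% (29.4–46.2) above 2. Both ranges above 1 had a higher share than cells with no *Stab2* read. *Ctgf* overlaps a gene on the other strand, Gm15270, and the strand setting of the counting is not given in the sources used here.

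The other genes stayed within 1.5-fold in the *Stab2* class. Their log2 ratios were -0.30 for *Yap1*, -0.06 for *Wwtr1*, 0.20 for *Tead1*, 0.29 for *Lats2*, -0.35 for *Amotl2* and 0.10 for *Cyr61*. The medians of *Cyr61* were 1.64 and 1.73, much closer than its spread over cells. The median over the 7 genes was 0.10 and that over all genes 0.03. *Ankrd1* was found in 6 cells of the *Stab2* class and 12 of the others, which is too few to compare.

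Markers of blood endothelium had a higher summed level in the *Stab2* class, which rested mostly on *Selp*. The summed level of 5 such genes ranged from 0 to 52.8 reads per 10000 with a mean of 2.87 in the class, and from 0 to 18.1 with a mean of 0.968 elsewhere. At least 2 of them were found in 25.5% and 7.43% of cells. *Selp*, P-selectin, had the largest difference (2.07 against 0.402 reads per 10000). The log2 ratios of the others were 0.88 for *Sox17*, 0.32 for *Esm1*, 0.27 for *Cd34* and -0.13 for *Flt1*, which were found in 4.99%, 0.356%, 28.9% and 2.49% of all cells. Without the 14.4% of cells that held at least 2 markers of another cell type, the log2 ratio of *Ctgf* was 1.17. The *Stab2* class also had lower immediate early genes (a median of 1.602 against 1.84 for their mean value), and the ratio of *Ctgf* was 0.91 among cells above and 1.32 among cells below the median of these genes.

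**Figure D2:**
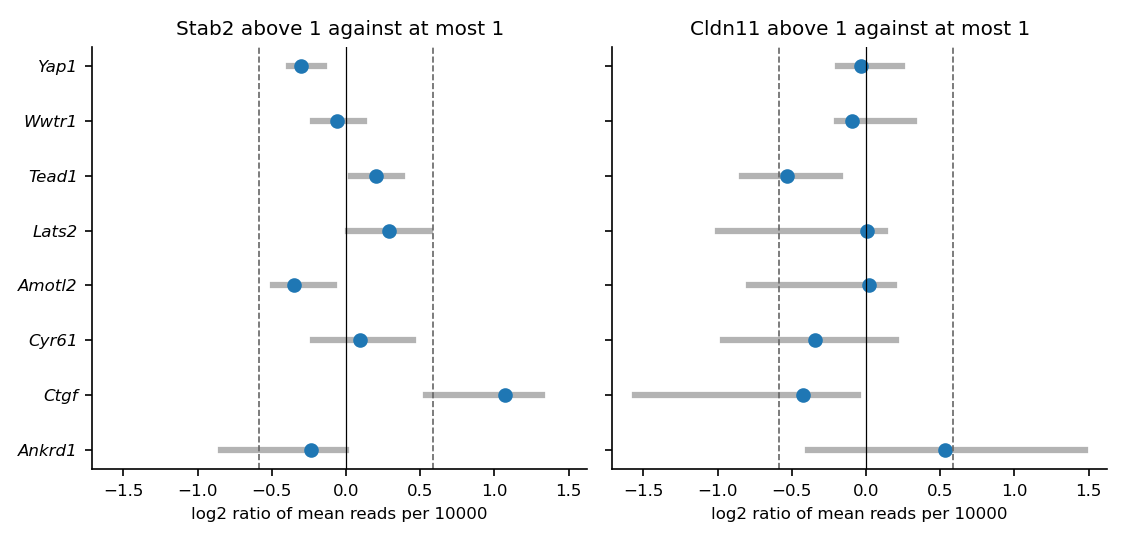
Log2 ratio of mean reads per 10000 (horizontal axis) for each gene, cells with *Stab2* (left) or *Cldn11* (right) above 1 against the other cells. Blue points are the ratios, grey bars the range over 13 alternatives and dashed lines 1.5-fold. *Ctgf* lies at 1.07 on the left and is the sole gene whose point is past a dashed line.

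In the *Cldn11* class, 0 of the 7 genes were higher and 0 were lower past 1.5-fold, where 1.55% of all genes were higher and 2.91% lower. This count depended on the setting, as a cut at 2, which leaves 36 cells, put *Tead1*, *Lats2*, *Amotl2*, *Cyr61* and *Ctgf* past the fold on the lower side. The median over the 7 genes was -0.10 and that over all genes -0.03. *Tead1* came closest, at a mean of 0.382 against 0.598 reads per 10000 and a log2 ratio of -0.53. The ratio was -0.66 at 20000 reads and -0.61 without cells holding markers of another type. It was weaker with 1 instead of 0.1 added (-0.21), with a *Cldn11* cut at 0 (-0.17) and without the highest 5% of values (-0.38). Values of *Tead1* ran from 0 to 1.46 in the class and from 0 to 2.69 elsewhere, with medians of 0.132 and 0.102. A value above 1 was reached by 2.65% and 9.12% of cells. With all reads *Tead1* was found in 66.9% (58.8–74.3) of cells of the class and 63.1% (59.4–66.7) of the others. At 20000 reads the order was reversed, at 33.6% (25.97–41.8) and 41.4% (37.6–45.3). These intervals overlap at both depths.

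*Ctgf* had a log2 ratio of -0.43 in the *Cldn11* class. It was found in 29.1% (22.04–37.1) of its cells and 40.1% (36.4–43.8) of the others, and at 20000 reads in 18.5% (12.6–25.8) and 28.5% (25.1–32.2). Over rising ranges of *Cldn11* the share at 20000 reads was 27.96% (24.03–32.2) with no read, 30.3% (23.2–38.2) above 0 and up to 1, 20.7% (13.6–29.5) between 1 and 2, and 11.4% (3.20–26.7) above 2, the last in 35 cells. The interval above 2 is wide and overlaps with that of cells without a read.

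The remaining ratios in the *Cldn11* class were -0.03 for *Yap1*, -0.10 for *Wwtr1*, 0.01 for *Lats2*, 0.02 for *Amotl2* and -0.34 for *Cyr61*. That of *Cyr61* was -0.96 among cells above the median of total reads and 0.20 among those below it. *Ankrd1* had a read in 4 cells of the class. Fibroblast markers had a higher summed mean there (1.19 against 0.182), which rested on values up to 132.98 in a class where 1.99% of cells held at least 2 of them. Their part in these ratios was not tested beyond leaving out cells with markers of another type.

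**Figure D3:**
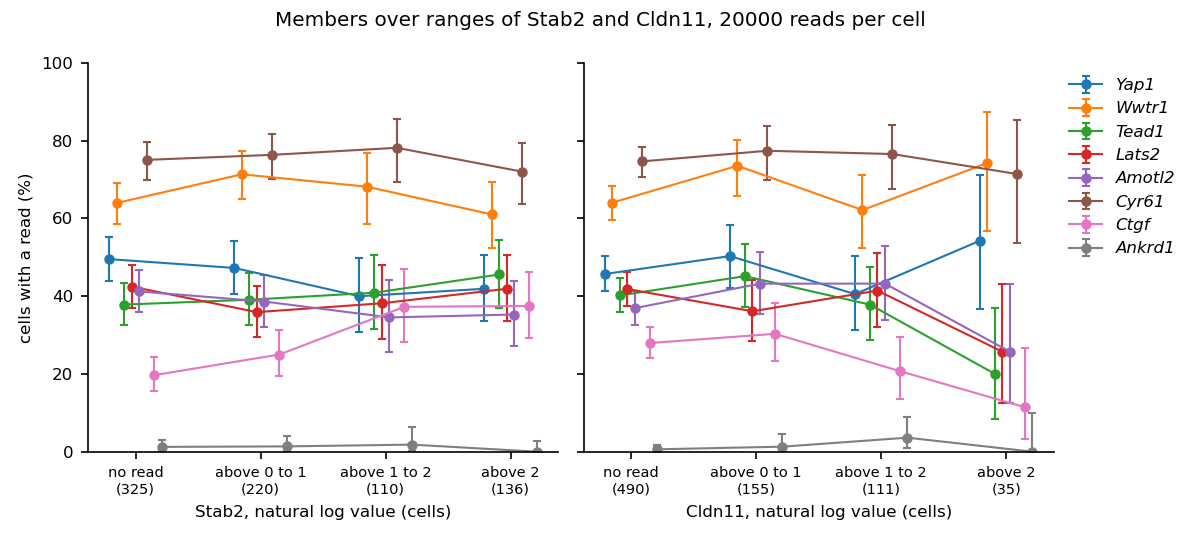
Share of cells with a read of each gene at 20000 reads per cell (vertical axis, %), over ranges of the natural log value of *Stab2* (left) or *Cldn11* (right), with exact 95% intervals. The numbers of cells stand below each range. *Ctgf* goes from 19.7% to 37.5% over *Stab2* and from 27.96% to 11.4% over *Cldn11*.

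The study divides valve LECs into upstream and downstream cells by *Gja4*, a gap junction gene, and the *Cldn11* class was described on both sides of a *Gja4* value of 1. *Ctgf* had a mean of 0.223 reads per 10000 in the 52 cells above 1 and 0.820 in the 99 other cells, a log2 ratio of -1.51. It was found in 15.4% (6.88–28.1) and 36.4% (26.9–46.6) of them, and at 20000 reads in 8% (2.22–19.2) and 23.96% (15.8–33.7), so that the intervals overlapped. *Amotl2* (-0.81) and *Yap1* (-0.60) were lower by more than 1.5-fold as well, beside 9.33% of all 9655 genes that were lower and 8.94% that were higher in this comparison of few cells. These genes had shares at 20000 reads of 38% against 39.6% and 38% against 46.9%. *Cyr61* (0.03), *Lats2* (-0.03), *Wwtr1* (-0.20) and *Tead1* (0.29) stayed within that fold. *Ankrd1* was found in 0 of 52 cells, which allows a share of up to 5.77% by 3 counts (6.85% by the exact interval), and in 4 of 99 cells.

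A further list held 18 upstream genes of the Hippo cascade. Of the 17 found in at least 10% of cells, none passed 1.5-fold in the *Stab2* class, and 1 did in the *Cldn11* class, *Wwc2* (KIBRA family) with a log2 ratio of -0.79. These counts are near the shares over all genes, 4.92% higher and 3.9% lower in the *Stab2* class and 1.55% and 2.91% in the *Cldn11* class. *Map4k4*, *Amotl1* and *Taok2*, named for their mean reads, stood at 0.251, 0.221 and 0.222 reads per 10000 per kilobase, and *Frmd6* at 0.231 on that scale. *Map4k4* and *Taok2* encode kinases upstream of LATS, and *Amotl1* an angiomotin. The class ratios of the list had a median of 0.09 in the *Stab2* class, where that over all genes was 0.03. In the *Cldn11* class the median was -0.19, and that over all genes -0.03.

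Of 16 further reported YAP and TAZ targets in the matrix, 7 were found in at least 10% of cells. *Asap1*, an Arf GTPase-activating protein, and *Crim1*, a transmembrane regulator of BMP signalling, were higher in the *Stab2* class by log2 ratios of 1.28 and 0.74, and none of the 7 was lower, beside 4.92% and 3.9% of all genes. *Igfbp3*, found in 8.19% of cells and named after its values were seen, had 0.0251 reads per 10000 in the *Stab2* class and 0.347 elsewhere (-1.84). *Asap1* was lower in the *Cldn11* class (-0.75). *Asap1* and *Crim1* lay on the same side as *Ctgf* in the *Stab2* class. *Ptpn14*, which encodes a phosphatase that binds YAP, had a mean natural log value of 1.16 ± 0.702 (SD) over all cells and a log2 ratio of -0.53 in the *Stab2* class. Per kilobase, *Crim1* stood at 0.459, *Ptpn14* at 0.228 and *Asap1* at 0.168 reads per 10000. *Foxf2* had a read in 0 cells, with the same upper limit as *Ptprc*, and 8 other targets were found in fewer than 10% of cells. *Tead4*, *Tead2* and the cofactor *Vgll4* did not pass 1.5-fold in either class. *Tead2* came near it in the *Stab2* class, at 0.189 against 0.328 reads per 10000 (-0.57). *Tead3* and *Vgll3* were found in fewer than 10% of cells and were not counted.

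Immediate early genes, which are induced within minutes by serum, stretch or tissue dissociation, were abundant, with *Fos* (3.603 ± 1.70), *Junb* (2.66 ± 1.35) and *Jun* (2.35 ± 1.31) at high natural log values. The list of 15 genes used here also holds the heat shock genes *Hspa1a* and *Hspa1b*. In the *Stab2* class 1 of the 15 listed genes, *Atf3*, was lower past 1.5-fold (-0.65). None was higher or lower in the *Cldn11* class, and these counts are near the shares over all genes. *Cyr61* itself belongs to the genes of rapid response to serum. Across the cells thinned to 20000 reads, Spearman's rho between *Cyr61* and the mean of the 15 listed genes was 0.49. With single genes of the list it lay between 0.19 (*Klf6*) and 0.53 (*Fos*). The correlation is given as a description, since the cells share 1 sample and a fixed depth.

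When the cells were divided into 4 bins of equal size by that mean, *Cyr61* stood at 2.77, 12.5, 21.2 and 34.3 reads per 10000 from the lowest to the highest bin, an 11.98-fold span with 0.1 added to each mean, as for all spans given here. It was found in 52.02% (44.8–59.2) of cells of the lowest and 89.9% (84.8–93.7) of the highest bin. The median total of deposited reads was 323540 in the lowest and 543517 in the highest bin, before all cells were set to equal depth. Against the other cells, *Cyr61* stood at 1.07-fold in the *Stab2* class and 0.788-fold in the *Cldn11* class. Each class divides all cells at a single cut, so these folds cannot be compared in size with a span between the outer bins.

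*Amotl2* followed the same order more weakly, with 0.455, 0.670, 1.04 and 1.09 reads per 10000, a 2.15-fold span, and a share of cells from 25.3% (19.4–31.9) to 47.5% (40.4–54.7). *Yap1* was found in 30.8% (24.5–37.7) of the lowest bin and in 50.3%, 54.04% and 50% of the other 3, although its mean level differed by only 1.22-fold between the lowest and highest. *Ctgf*, by contrast with its relative *Cyr61*, was found in 24.2% (18.4–30.8) of the lowest and 28.3% (22.1–35.1) of the highest bin, with overlapping intervals and a 1.35-fold span. *Wwtr1* (1.03-fold), *Lats2* (1.22-fold) and *Tead1* (0.825-fold) spanned little.

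**Figure D4:**
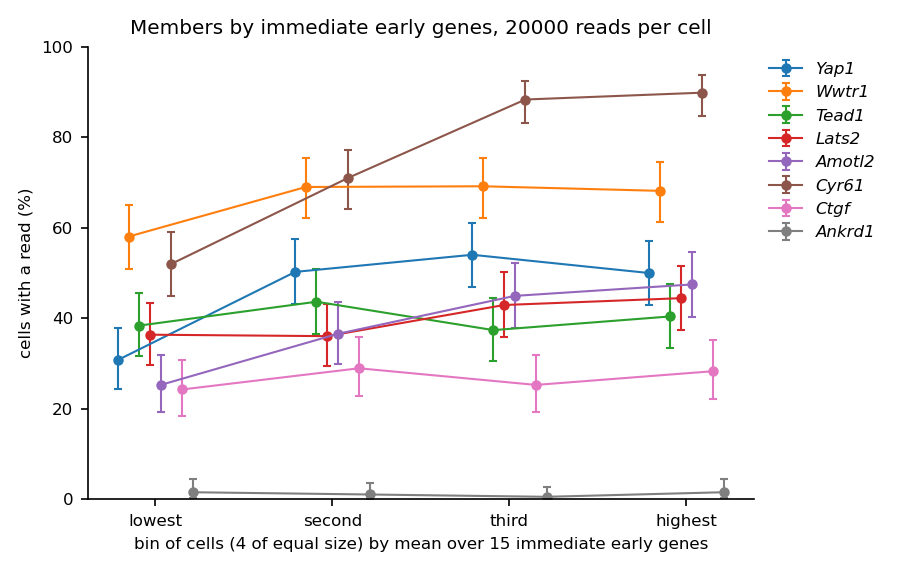
Share of cells with a read of each gene at 20000 reads per cell (vertical axis, %), with exact 95% intervals. The 4 bins of equal size follow the mean of the 15 listed immediate early and heat shock genes. *Cyr61* goes from 52.02% to 89.9% and *Amotl2* from 25.3% to 47.5%, while *Ctgf* stays between 24.2% and 28.9%.

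Among the 8 genes themselves, correlations across cells were weak. The highest were those of *Cyr61* with *Ctgf* (0.18) and with *Amotl2* (0.17), and the other 26 pairs lay between -0.05 and 0.09. *Yap1* and *Wwtr1* had a rho of 0.05. *Ctgf* was found in 30.03% of cells with a *Cyr61* read and in 16.4% of cells without one. At these low counts a rho near 0 does not show that 2 genes vary independently.

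**Figure D5:**
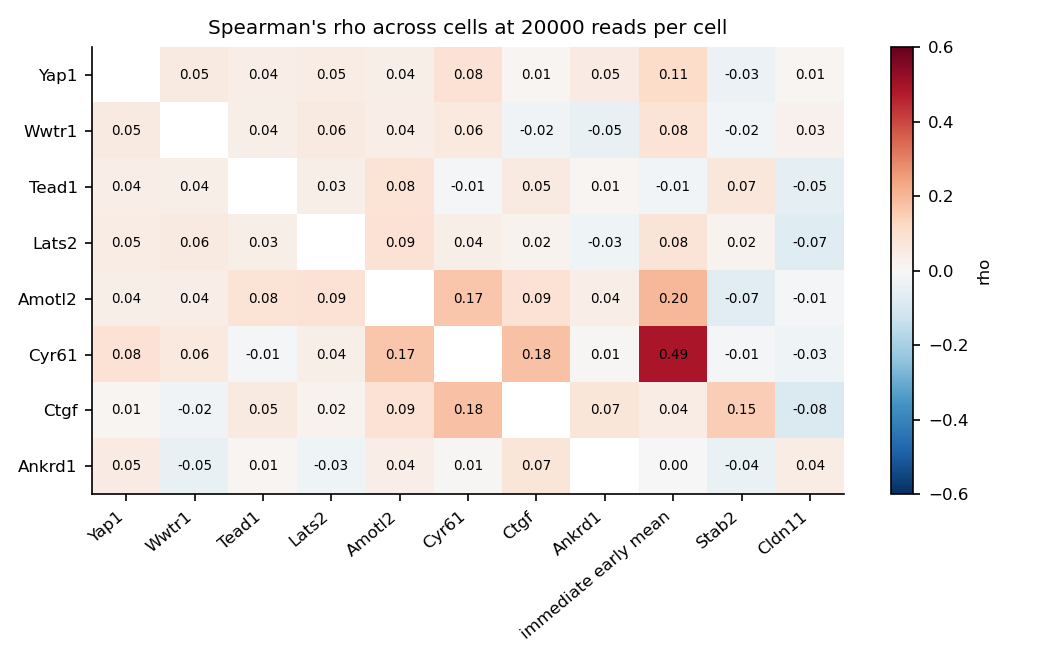
Spearman's rho across cells thinned to 20000 reads (colour and printed value) between the 8 genes, and of each gene with the immediate early mean, *Stab2* and *Cldn11*. The value of *Cyr61* with the immediate early mean, 0.49, is the highest shown, and *Ctgf* has 0.15 with *Stab2*.

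The genes most like each member were sought by Spearman's rho among 5086 genes with a read in 20% or more of the thinned cells. *Cyr61* was most like *Fos* (0.53), *Jun* (0.46) and *Egr1* (0.42), and *Amotl2* like *Jun* (0.20), *Egr1* (0.18) and *Junb* (0.18). *Ctgf* was most like *Thbs1* (0.22), *Itga1* (0.19) and *Bgn* (0.19), none of which is an immediate early gene of the list. For *Tead1* the first 3 were *Stab1*, *Crim1* and *Eng* (each 0.14), for *Wwtr1* *Rtn4* (0.22), *Bcl10* (0.15) and *Hnrnph3* (0.14), for *Yap1* *Irf1* (0.19), *Tpm3* (0.17) and *Nop58* (0.17), and for *Lats2* *Fam43a* (0.16), *Srsf1* (0.13) and *Nsd1* (0.13). All values but those of *Cyr61* are weak, and *Ankrd1* was too rare for this measure.

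In the mouse genome (GENCODE M21, GRCm38), *Cyr61*, annotated as Ccn1, lies on chromosome 3 at 145646976–145649981 on the minus strand, and *Ctgf*, annotated as Ccn2, on chromosome 10 at 24595442–24598683 on the plus strand. *Yap1* lies on chromosome 9 at 7931999–8004596, *Wwtr1* on chromosome 3 at 57455649–57575910 and *Tead1* on chromosome 7 at 112679318–112906807. *Lats2* lies on chromosome 14 at 57689662–57758388, *Amotl2* on chromosome 9 at 102716672–102733418 and *Ankrd1* on chromosome 19 at 36111961–36120099. *Yap1* and *Lats2* each overlap another annotated gene (Gm20416 on the other strand and Gm49361 on the same strand), so reads there could not be assigned with certainty.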

How the data were processed

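Per the submitters' processing notes, alignment to mm10 used STAR, read counting featureCounts and normalization Seurat 4.1.0. The authors kept cells with at least 2000 genes and at most 10% mitochondrial reads. The deposited values are on a natural log scale, since their exponentials minus 1 summed to 10000 in every cell, although the methods name a log2 step. Annotation, strand and multi-mapping settings are not given in the sources used here. No count of molecular identifiers is mentioned, so the values were taken as reads. Whole reads were recovered from 100% of values above 0 (within 0.01 reads). No doublet caller was run.

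Levels, shares, log2 ratios with 0.1 added and Spearman correlations were computed in Python 3.11.15 with NumPy 2.4.6, pandas 2.3.3 and SciPy 1.17.1. Of these, only the log2 ratio, for the *Stab2* class, was tested on simulated data. The genes and lists were chosen with earlier results of these data known. Named genes were the 8 members, up to 4 genes of each list furthest past 1.5-fold, the 3 with the highest means per list and the 3 most like each member. Markers used as checks, the heat shock genes and genes that overlap a member were named in addition. *Fjx1*, *Krt5*, *Krt14* and *Sox10* of the lists were not analysed here. The 14 alternatives per ratio changed the pseudocount, cut, depth, cell filter and scale, and 4 of them, on either side of the median of immediate early genes or reads, were chosen after seeing the data.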

Additional observations from a re-analysis of the deposited data

How the results depend on the processing

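Among 14 alternatives for each gene and class, 3 ratios fell within 1.5-fold, 20 moved past it and the others kept their side, although ratios near 0 also changed sign. In the *Stab2* class, *Ctgf* fell within that fold with a pseudocount of 1 (0.56) and a cut at 0 (0.54). As a difference of mean natural log values, expressed in log2 units, it did so too (0.31). Its 13 other alternatives lay between 0.54 and 1.32. *Ankrd1* reached -0.85 there with a pseudocount of 0.01. In the *Cldn11* class a cut at 2, which leaves 36 cells, gave -0.78 for *Tead1*, -0.996 for *Lats2*, -0.79 for *Amotl2*, -0.82 for *Cyr61* and -1.56 for *Ctgf*. *Tead1* in this class was at -0.21 with a pseudocount of 1 and at -0.17 with a cut at 0. It passed the fold with a pseudocount of 0.01 (-0.63), thinned (-0.66) and without cells with other markers (-0.61). So it did among cells below the median of immediate early genes (-0.84) and above the median of reads (-0.66). In these last 2 sets of cells so did *Cyr61* (-0.82 and -0.96) and *Ctgf* (-0.88 and -0.9999), the latter also in cells with at least 3000 genes (-0.65). Below the median of reads *Cyr61* was at 0.20. *Ankrd1* gave 1.47 with a pseudocount of 0.01, 0.63 without cells above both cuts, 0.69 above the median of immediate early genes and 0.87 below that of reads, from 4 cells with a read. With a pseudocount of 1, 71 of 9655 genes (0.735%) were higher and 98 (1.02%) lower in the *Stab2* class, and 14 (0.145%) and 11 (0.114%) in the *Cldn11* class. Without the filter on low genes, 1.12% of 23168 genes were higher in the *Cldn11* class, 1.73 times as many as with it. The causes were not tested. Shares of cells moved beyond their interval in 22 of 24 alternatives. These thinned the cells, counted only values above 1, or kept only cells with at least 3000 genes. The shares of *Ctgf* and *Ankrd1* stayed within their interval in cells with at least 3000 genes. All 28 correlations between the genes stayed within 0.1. No paired analysis was possible because the cells form 1 sample with no replicates.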
